A study of Mus musculus with 3 samples.

Results

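Motile cilium and axoneme genes were followed in 3 RNA sequencing libraries of lung from female BALB/c mice, 1 per group. The genes were chosen by symbol: the families of axonemal dynein chains, radial spoke proteins, tektins and Cfap genes, with Spag6, Spag16, Spag17, subunits of the dynein regulatory complex and a fixed set of further genes of ciliated cells such as Foxj1 and Hydin. Of the 23183 genes in the files 66 matched, and the 62 that reached 1 FPKM in any library were kept, FPKM being fragments per kilobase of transcript scaled to the depth of the library. The OVA+PM10 mice were sensitised to ovalbumin (OVA, an egg-white allergen) with 20 µg in aluminium hydroxide given into the peritoneum, the last time on day 14. They were challenged through the nose with 30 µL of OVA at 1 mg/mL on days 21, 22 and 23, and they also received PM10. A time of 2 days after the last challenge is recorded for this group, and no matching time for the others. The PM10 mice received PM10, a certified reference material of particulate dust, through the nose on 4 occasions within 2 weeks. The controls carry no other description in the labels, and no vehicle is given for them. The labels put the mice at 10 weeks of age in a first field and at 5 to 6 weeks in the housing text, with 5 mice assigned to a group and PM10 amounts of 100 or 200 µg in 20 µL saline. Which amount was sequenced, and whether a library held 1 mouse or a pool, is not stated. Mice that got OVA without PM10 are not analysed here, so the parts of OVA and PM10 in the OVA+PM10 library cannot be told apart.

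A motile cilium is a beating projection built on microtubule doublets arranged around a central pair of microtubules. Outer and inner dynein arms drive the beat, the nexin-dynein regulatory complex and the radial spokes control it, and tektins and other proteins inside the doublets stabilise them. In the lung these cilia stand on multiciliated cells of the conducting airways, where they move mucus upward. Their genes are switched on by the coregulator Mcidas, the forkhead factor FOXJ1 and factors of the RFX family.

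With 1 library a group, nothing below has a replicate check or a p-value, and every ratio compares libraries, not conditions. Ratios are log2 ratios of FPKM + 1 unless called plain. A gene counted as higher or lower if it passed 2-fold on that scale and the higher of its pair of values was 1 FPKM or more. Adding 1 understates the change of low genes, so plain ratios of FPKM are given too. The smallest values put the depth near 15.3 M reads in OVA+PM10, 13.1 M in PM10 and 20.2 M in control. The median member rested on about 472.5 reads in OVA+PM10, 111.5 in PM10 and 168 in control, and 7 members had under 30 reads in PM10 and 3 in control. The control library stood apart in its tissue content. The 16 genes of squamous epithelium summed to 6.91 FPKM in OVA+PM10, 3.04 in PM10 and 6191 in control, and the 16 skeletal muscle genes to 54.1 FPKM in OVA+PM10, 51.5 in PM10 and 5697 in control. The part of this other tissue in the cilium results was not tested. The comparison of OVA+PM10 with PM10, which leaves the control library out, is given below.

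The cilium genes were higher in OVA+PM10 than in control as a nearly complete set. Of the 62 members, 49 were at least 2-fold higher and 0 lower, against 9.95% of all 13877 genes tested that were higher and 8.68% that were lower. The members' median log2 ratio was 1.54, against -0.0017 over all genes. The median plain ratio was 4.46, with quartiles of 3.26 and 5.24, and 59 of 62 members were above 1. In bulk lung, more ciliated cells and more RNA per ciliated cell cannot be told apart. The threshold of 1 FPKM favours this direction, since 14 members reached it only in OVA+PM10. Among the 47 members at 1 FPKM or more in control, 39 were higher and 0 lower, or 83.0%, against 8.32% of the 13215 genes at that level in control. Under the threshold stood Tekt3 with 0.807 FPKM in OVA+PM10, 0.267 in PM10 and 0.282 in control, Spag6l with 0.326 FPKM in OVA+PM10, 0 in PM10 and 0 in control, Dnah17 with 0.012 FPKM in OVA+PM10, 0 in PM10 and 0.050 in control, and Rsph6a, listed at 0 throughout. Just above it stood Dnah7a, whose highest value was 1.31 FPKM, and Cfap221, with 1.40 FPKM.

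**Figure D1:**
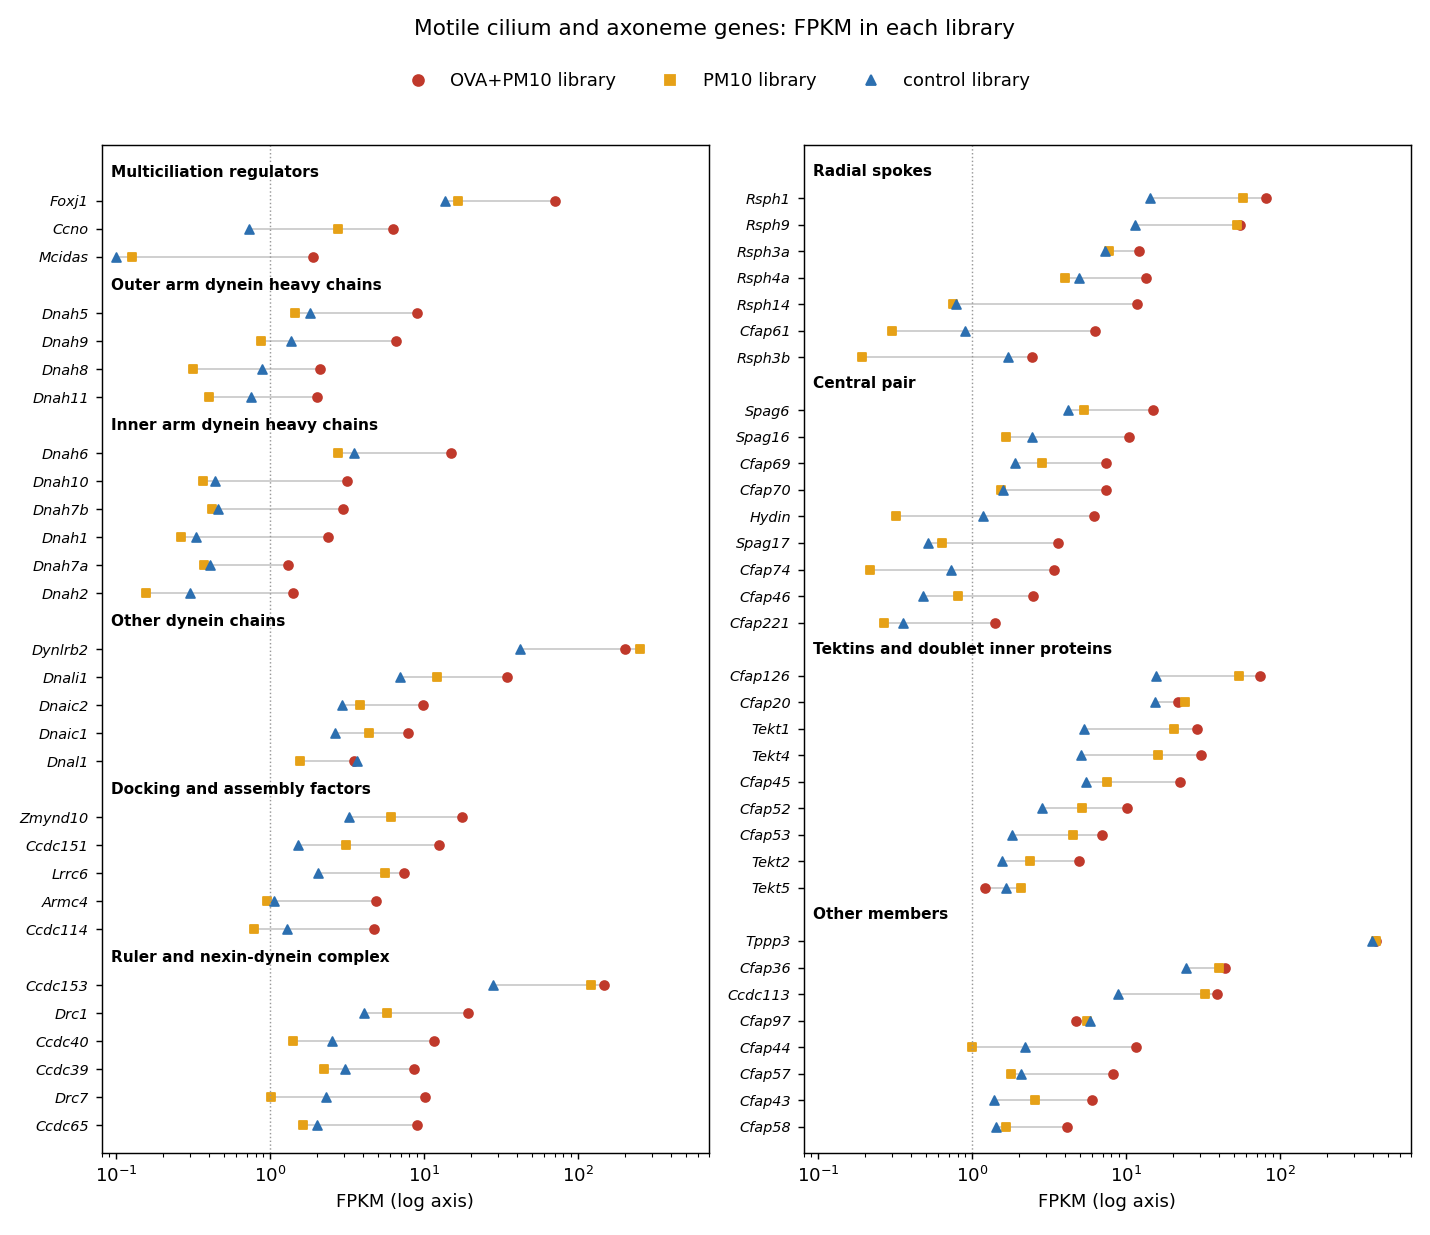
FPKM of the 62 motile cilium and axoneme genes on a log axis, 1 row per gene, grouped by part of the cilium, with 1 symbol for each of the OVA+PM10, PM10 and control libraries. The dotted line marks 1 FPKM. OVA+PM10 is the highest of the libraries in 56 of the 62 genes, and PM10 lies on either side of control.

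The 3 regulators among the members were higher in OVA+PM10 than in control. Foxj1 (chromosome 11, 116330704 to 116335399, GRCm38), the forkhead factor that switches on motile cilium genes, had 70.6 FPKM in OVA+PM10, 16.5 in PM10 and 13.6 in control. OVA+PM10 stood apart while PM10 and control lay close together, with log2 ratios to control of 2.30 in OVA+PM10 and 0.26 in PM10. Ccno (chromosome 13, 112987802 to 112990777), a cyclin needed to multiply centrioles before cilia form, had 6.24 FPKM in OVA+PM10, 2.73 in PM10 and 0.725 in control. Its levels were ordered, with PM10 between OVA+PM10 and control. Mcidas (chromosome 13, 112993845 to 113000394), 3067 bases beyond Ccno on the same strand, had 1.89 FPKM in OVA+PM10, 0.127 in PM10 and 0.100 in control. This corresponds to about 68 reads in OVA+PM10, 4 in PM10 and 5 in control, so only the OVA+PM10 value rests on more than a few reads. Cdc20b, the next gene of this multiciliation locus and not a member, had 1.83 FPKM in OVA+PM10, 0.201 in PM10 and 0.224 in control and was likewise low everywhere and highest in OVA+PM10. Of a wider list of 25 regulators of multiciliation, which includes these 4, 6 were higher and 2 lower in OVA+PM10 than in control, and 17 were within 2-fold. The 6 were these same 4 with Myb and Trp73. The shares, 24% higher and 8% lower, stood against 9.95% and 8.68% of all genes tested. Most of the higher genes were thus those already described, and the share does not extend the result to the rest of the list. Rfx2, an RFX factor of ciliated cells, had 7.41 FPKM in OVA+PM10, 1.35 in PM10 and 3.99 in control. Rfx3, another, had 4.63 FPKM in OVA+PM10, 0.699 in PM10 and 2.36 in control. Rfx1 had 4.47 FPKM in OVA+PM10, 1.56 in PM10 and 4.47 in control. All 3 RFX genes were within 2-fold between OVA+PM10 and control and lowest in PM10, and so was Gmnc, which acts upstream of Mcidas, with 1.19 FPKM in OVA+PM10, 0.103 in PM10 and 0.704 in control. The lower genes were Notch1 and Dll1, of Notch signalling. Between PM10 and control 1 of the 25 was higher (4%) and 4 were lower (16%), against 13.6% and 13.9% of all genes tested. The share lower was thus near the background, and only 20 of the 25 reached 1 FPKM in that pair.

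The dynein heavy chains, the large motor subunits, were low per kilobase and have long transcripts. They rested on about 245 (Dnah7a) to 2856 reads (Dnah6) in OVA+PM10, 28 (Dnah2) to 459 (Dnah6) in PM10 and 84 (Dnah2) to 894 (Dnah6) in control. Dnah5 (chromosome 15, 28203752 to 28472052), an outer arm motor, had 8.99 FPKM in OVA+PM10, 1.44 in PM10 and 1.82 in control, or about 2145 reads in OVA+PM10, 296 in PM10 and 576 in control. Dnah9, another outer arm motor, had 6.56 FPKM in OVA+PM10, 0.871 in PM10 and 1.35 in control. For both, OVA+PM10 was far above the other libraries and PM10 was the lowest. Dnah11, also of the outer arm, had 2.01 FPKM in OVA+PM10, 0.402 in PM10 and 0.749 in control, and its ratio of OVA+PM10 to control was under 2-fold with 1 added (0.79) but 2.69 in plain FPKM. Dnah8, a relative of Dnah5 known from sperm tails, had 2.10 FPKM in OVA+PM10, 0.312 in PM10 and 0.884 in control. Among inner arm motors Dnah6 was the most abundant, with 14.8 FPKM in OVA+PM10, 2.77 in PM10 and 3.49 in control. Dnah10 had 3.14 FPKM in OVA+PM10, 0.363 in PM10 and 0.434 in control. Dnah1 had 2.36 FPKM in OVA+PM10, 0.263 in PM10 and 0.329 in control. In these inner arm motors as well, OVA+PM10 was the highest library and PM10 the lowest. Dnah7a had 1.31 FPKM in OVA+PM10, 0.371 in PM10 and 0.406 in control. Dnah7b had 2.94 FPKM in OVA+PM10, 0.415 in PM10 and 0.454 in control. These paralogs are near copies, and reads could have been divided wrongly between them. Over the 10 heavy chains the plain ratio of OVA+PM10 to control lay between 2.38 (Dnah8) and 7.23 (Dnah10), and that of PM10 to control between 0.353 (Dnah8) and 0.914 (Dnah7b).

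Of the 5 smaller dynein chains, 4 were higher in OVA+PM10 than in control. Dnaic1, an intermediate chain of the outer arm, had 7.81 FPKM in OVA+PM10, 4.34 in PM10 and 2.64 in control. Dnaic2, the other outer arm intermediate chain, had 9.86 FPKM in OVA+PM10, 3.80 in PM10 and 2.91 in control. Dnali1, a light intermediate chain of inner arms, had 34.4 FPKM in OVA+PM10, 12.2 in PM10 and 6.92 in control. In each of these PM10 lay between the other libraries. Dynlrb2, a roadblock-type light chain with the shortest transcript of the members (527 bases), had 201 FPKM in OVA+PM10, 249.7 in PM10 and 42.04 in control. Here PM10 was the highest library, and control alone was low. Dnal1, a light chain of the outer arm, was the one not called, with 3.49 FPKM in OVA+PM10, 1.55 in PM10 and 3.66 in control, so that OVA+PM10 lay close to control and PM10 below both.

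All 5 genes that dock or assemble the arms were higher in OVA+PM10 than in control, with log2 ratios between 1.31 (Ccdc114) and 2.42 (Ccdc151). Ccdc151, of the outer arm docking complex, had 12.5 FPKM in OVA+PM10, 3.11 in PM10 and 1.52 in control. Armc4, which also attaches outer arms, had 4.86 FPKM in OVA+PM10, 0.956 in PM10 and 1.05 in control. Ccdc114, of the docking complex, had 4.68 FPKM in OVA+PM10, 0.787 in PM10 and 1.29 in control. PM10 lay near or below control for Armc4 and Ccdc114 and above it for Ccdc151. Zmynd10, which helps to assemble arms in the cytoplasm, had 17.6 FPKM in OVA+PM10, 6.11 in PM10 and 3.24 in control. Lrrc6, its partner in arm assembly, had 7.39 FPKM in OVA+PM10, 5.58 in PM10 and 2.02 in control. For Lrrc6, PM10 lay nearer to OVA+PM10 than to control.

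All 6 genes of the ruler and the nexin-dynein regulatory complex were higher in OVA+PM10 than in control. Ccdc39, of the coiled-coil ruler that spaces arms and spokes, had 8.54 FPKM in OVA+PM10, 2.23 in PM10 and 3.03 in control. Ccdc40, its partner in the ruler, had 11.6 FPKM in OVA+PM10, 1.41 in PM10 and 2.50 in control. For both ruler genes PM10 was the lowest library. Drc1, a subunit of the regulatory complex, had 19.2 FPKM in OVA+PM10, 5.71 in PM10 and 4.04 in control. Drc7, another, had 10.1 FPKM in OVA+PM10, 1.01 in PM10 and 2.28 in control. Ccdc65, also of that complex, had 8.91 FPKM in OVA+PM10, 1.63 in PM10 and 1.99 in control. PM10 was thus above control for Drc1 and below it for Drc7 and Ccdc65. Ccdc153 was the most abundant of the 6, with 148 FPKM in OVA+PM10, 121 in PM10 and 27.7 in control, and only there was PM10 near OVA+PM10. The plain ratio of OVA+PM10 to control lay between 2.82 and 5.32 over these 6 genes, and that of PM10 to control between 0.443 and 4.35.

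Radial spoke genes were more varied, with 5 of 7 higher in OVA+PM10 than in control. Rsph1 (chromosome 17, 31255019 to 31277383), a spoke head protein, had 81.1 FPKM in OVA+PM10, 56.8 in PM10 and 14.3 in control. Rsph9, another spoke head protein, had 54.5 FPKM in OVA+PM10, 52.6 in PM10 and 11.3 in control. Rsph4a, also of the spoke head, had 13.5 FPKM in OVA+PM10, 3.99 in PM10 and 4.90 in control. PM10 was thus well above control for Rsph1 and Rsph9 and below it for Rsph4a. Rsph14 had 11.8 FPKM in OVA+PM10, 0.752 in PM10 and 0.787 in control, and at 2.84 it had the highest log2 ratio of OVA+PM10 to control of all members. Cfap61, of a complex at the spoke base, had 6.27 FPKM in OVA+PM10, 0.301 in PM10 and 0.895 in control. Both stood high in OVA+PM10 alone. Rsph3a, of the spoke stalk, had 12.1 FPKM in OVA+PM10, 7.72 in PM10 and 7.24 in control. Rsph3b had 2.43 FPKM in OVA+PM10, 0.193 in PM10 and 1.69 in control, the PM10 value resting on about 6 reads. Neither passed 2-fold between OVA+PM10 and control, and reads could have been divided wrongly between these near copies.

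All 9 central pair members were above control in OVA+PM10, and 8 passed 2-fold. Hydin (chromosome 8, 110266977 to 110610253), a very large protein of a central pair projection, had 6.15 FPKM in OVA+PM10, 0.318 in PM10 and 1.17 in control, or about 1481 reads in OVA+PM10, 66 in PM10 and 373 in control. Its plain ratio of OVA+PM10 to PM10 was 19.3, and of the members only Cfap61, at 20.8, was above it. Spag6, of the central apparatus, had 14.97 FPKM in OVA+PM10, 5.29 in PM10 and 4.20 in control. The symbols of the paralogs Spag6 and Spag6l have been exchanged between annotations, so which of them this value belongs to is uncertain. Spag16, of the same structure, had 10.3 FPKM in OVA+PM10, 1.65 in PM10 and 2.44 in control. Spag17, its partner, had 3.61 FPKM in OVA+PM10, 0.639 in PM10 and 0.516 in control. PM10 lay near or below control for Spag16 and near it for Spag17. Cfap69 had 7.33 FPKM in OVA+PM10, 2.84 in PM10 and 1.89 in control. Cfap70 had 7.32 FPKM in OVA+PM10, 1.53 in PM10 and 1.59 in control. Cfap221, the one within 2-fold, had 1.40 FPKM in OVA+PM10, 0.265 in PM10 and 0.356 in control, a plain ratio of OVA+PM10 to control of 3.94.

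Of the 9 tektins and other proteins inside the doublets, 7 were higher in OVA+PM10 than in control and 3 also in PM10 than in control. Tekt1, a filament protein of the doublets, had 28.8 FPKM in OVA+PM10, 20.5 in PM10 and 5.33 in control. Tekt4, another tektin, had 30.6 FPKM in OVA+PM10, 16.02 in PM10 and 5.10 in control. Cfap126, also known as Flattop, had 73.99 FPKM in OVA+PM10, 53.8 in PM10 and 15.6 in control. In all 3, PM10 stood well above control. Cfap45 had 22.4 FPKM in OVA+PM10, 7.49 in PM10 and 5.49 in control, and for it PM10 lay nearer to control. Cfap20, which many cell types express, had 21.7 FPKM in OVA+PM10, 23.9 in PM10 and 15.3 in control and stayed within 2-fold in every comparison. Tekt5 had 1.20 FPKM in OVA+PM10, 2.08 in PM10 and 1.64 in control, the lowest plain ratio of OVA+PM10 to control among the members, 0.733.

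The most abundant member was nearly level across the libraries. Tppp3, a tubulin-binding protein, had 416 FPKM in OVA+PM10, 419 in PM10 and 396 in control, within 2-fold in every comparison. The other 61 members summed to 1190 FPKM in OVA+PM10, 804 in PM10 and 289 in control. Dynlrb2 and Ccdc153 made up 348 FPKM of this in OVA+PM10, 370.2 in PM10 and 69.8 in control. As a share of the summed FPKM of the library, which differed between libraries, the 61 members came to 0.139% in OVA+PM10, 0.0622% in PM10 and 0.0529% in control, so that PM10 was close to control on that scale. Cfap36 had 43.5 FPKM in OVA+PM10, 40.01 in PM10 and 24.5 in control. Cfap97 had 4.71 FPKM in OVA+PM10, 5.51 in PM10 and 5.84 in control. Neither passed 2-fold in any comparison. Of the 13 members not called between OVA+PM10 and control, Dnah2, Dnah7a, Dnah8, Dnah11 and Cfap221 had plain ratios between 2.38 and 4.67. Ccdc113, a coiled-coil protein of cilia, had 38.98 FPKM in OVA+PM10, 32.6 in PM10 and 8.81 in control. Cfap44 had 11.6 FPKM in OVA+PM10, 0.990 in PM10 and 2.21 in control. Both were highest in OVA+PM10, but PM10 lay near OVA+PM10 for Ccdc113 and below control for Cfap44.

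**Figure D2:**
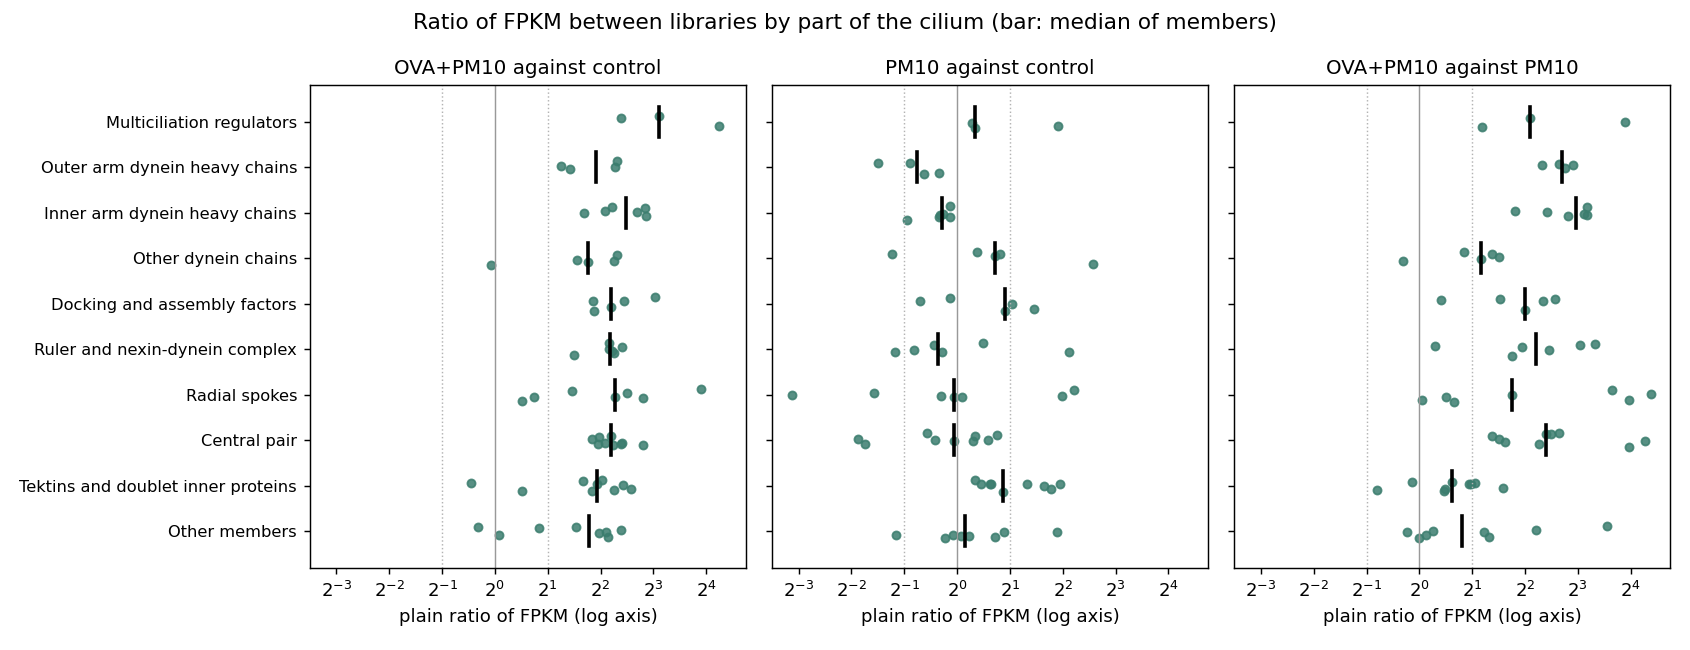
Plain ratio of FPKM between libraries on a log axis for each of the 62 genes, grouped by part of the cilium, in 1 panel per comparison. Points are genes, black bars group medians and dotted lines 2-fold. For OVA+PM10 against control the group medians lie between 3.39 and 8.61, and for PM10 against control on both sides of 1.

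Between PM10 and control, the share higher and the median over the 62 members lay near those of all genes. The share lower was smaller. Of the 62 members, 10 were at least 2-fold higher (16.1%) and 1 lower (1.61%), against 13.6% and 13.9% of 13693 genes tested. Only 48 of the 62 reached 1 FPKM in this pair and could be called, while all 13693 genes did. Among the 47 members at 1 FPKM or more in control, 9 were higher and 1 lower. This was 19.1% higher, against 12.9% of the 13215 genes at that level. The members' median log2 ratio was 0.08, against 0.02 over all genes, and in plain FPKM 33 members were above control and 29 below. The 10 higher members were Dynlrb2, Rsph9, Ccdc153, Rsph1, Ccdc113, Tekt1, Cfap126, Tekt4, Lrrc6 and Ccno, with log2 ratios between 1.11 (Ccno) and 2.54 (Dynlrb2). The lower one was Rsph3b, at -1.17. Among the 21 members at 5 FPKM or more in either library, 9 were higher and 0 lower, or 42.9%, against 17.3% and 13.4% of 9863 genes at that level. Scaling the libraries to equal summed FPKM left 1 member higher and 20 lower, with a median of -0.62. On that scale the median of all genes was -1.05, itself past 2-fold lower, and the members' median lay above it. The share of all genes past 2-fold was not counted there, so the 20 lower members cannot be read as a result about cilium genes. In the other comparisons the median of all genes on that scale was -0.58 (OVA+PM10 against control) and 0.47 (OVA+PM10 against PM10).

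Which members were higher in PM10 went with transcript length, as it did over all genes. Across the 62 members the log2 ratio of PM10 to control had a Spearman correlation of -0.69 with transcript length (Pearson -0.66 with log2 length), and across 13612 genes one of -0.49. The points share one pair of libraries, and genes are not independent replicates. Of the 21 members with transcripts of 527 to 2225 bases, 9 were higher in PM10 and 0 lower, or 42.9% higher, against 32.0% higher and 9.57% lower among all genes in that range. Of the 20 members with transcripts of 4619 to 16685 bases, 0 were higher and 0 lower, against 2.64% and 26.1% of all genes in that range, and 10 of these members were under 1 FPKM in both libraries and so could not be called. With the running median over length subtracted, 6 members were higher and 1 lower in PM10, against 7.68% and 11.2% of genes. On that scale 41 members lay above 0 and 21 below, with a median of 0.31. For long members of low FPKM the added 1 holds the ratio near 0 while the running median lies well below it, so subtraction raises them. Dnah8, with a plain ratio of PM10 to control of 0.353, came to 0.49. The 41 and the median thus do not show that the members were higher in PM10. Ccdc153, Dynlrb2, Rsph1, Rsph9 and Tekt1 kept their call, Cfap43, with 5.96 FPKM in OVA+PM10, 2.57 in PM10 and 1.39 in control, gained one, and Ccdc113, Ccno, Cfap126, Lrrc6 and Tekt4 lost theirs.

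**Figure D3:**
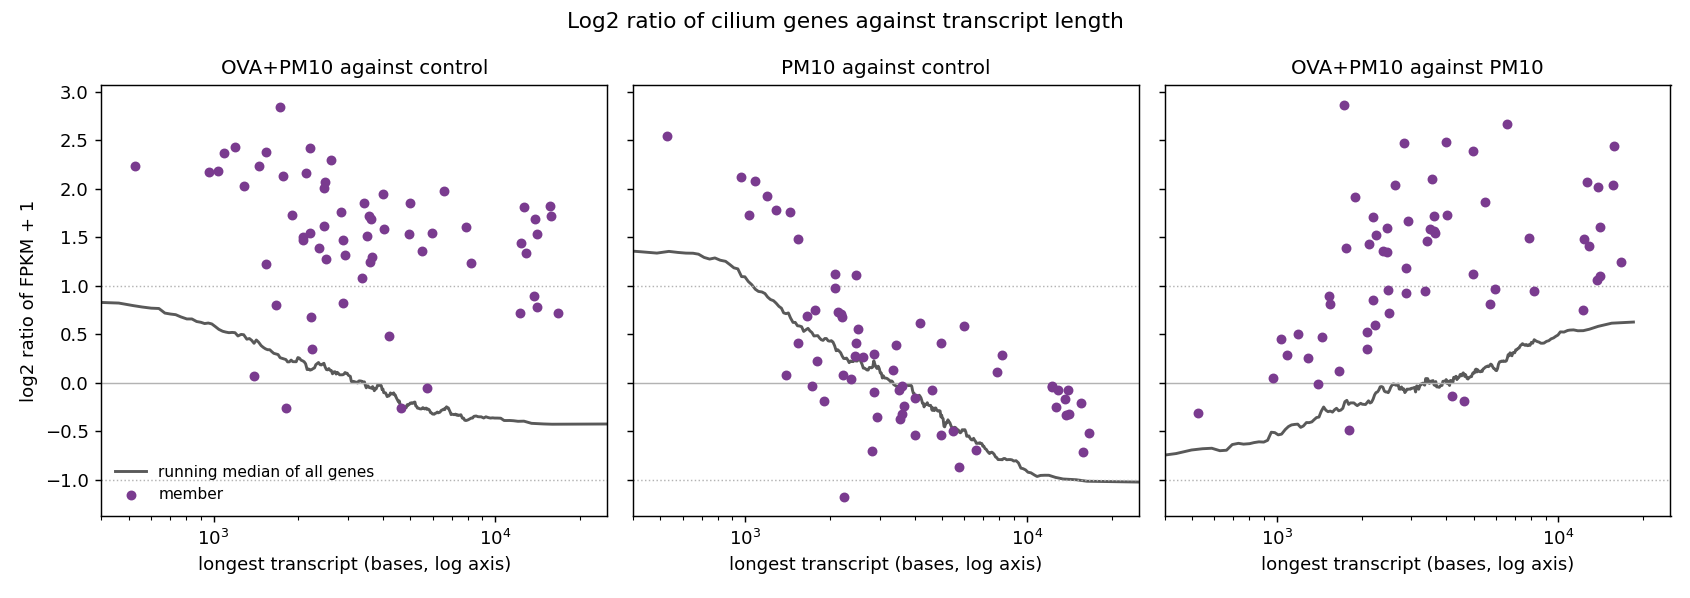
Log2 ratio of FPKM + 1 against the length of the longest annotated transcript in bases (log axis), in 1 panel per comparison, with 1 point for each of the 62 genes and a line for the running median of all genes. Dotted lines mark 2-fold. For OVA+PM10 against control most points lie above the line, and for PM10 against control they run downward with length, with a rank correlation of -0.69.

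For OVA+PM10 against control, the log2 ratio had a Spearman correlation of -0.36 with length over the 62 members and of -0.36 over 13802 genes, while the members' plain ratio had one of -0.02. Higher in OVA+PM10 were 17 of the 21 members with the shortest transcripts, 18 of the 21 of 2243 to 4182 bases and 14 of the 20 with the longest, against 19.4%, 8.14% and 3.23% of all genes in those ranges. Of the 20 longest, 10 were under 1 FPKM in control and were kept only through their OVA+PM10 value, so these counts do not show that length plays no part. Among members at 1 FPKM or more in control, 16 of 20, 15 of 17 and 8 of 10 were higher from the shortest range to the longest, and 0 were lower. With the running median subtracted, 52 members were higher and 0 lower, against 7.54% and 8.35% of genes. Of the 49 higher members 48 kept their call, Tekt2 lost it, and Dnah2, Dnah7a, Dnah8 and Dnah11, all under 1 FPKM in control, gained one.

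Most cilium genes were also higher in OVA+PM10 than in PM10. Of the 62 members, 36 were at least 2-fold higher and 0 lower, against 11.8% and 9% of 13556 genes tested, and the median log2 ratio was 1.29, against -0.03 over all genes. This comparison shares the OVA+PM10 library with the one against control. Among the 42 members at 1 FPKM or more in PM10, 19 were higher, or 45.2%, against 7.996% of the 12419 genes at that level. Each of the 10 genes that were higher in PM10 than in control was within 2-fold here, with log2 ratios between -0.31 (Dynlrb2) and 0.96 (Ccno). The highest ratios were those of Rsph14 (2.87), Cfap44 (2.66), Cfap61 (2.48), Drc7 (2.47) and Hydin (2.44). The log2 ratio went with length here too, with a Spearman correlation of 0.48 over the members and 0.26 over 13473 genes. For the members' plain ratio it was 0.60. With the running median subtracted, 35 were higher and 0 lower, against 11.9% and 6.64% of genes. Of the 36 calls 30 remained, those of Dnah1, Dnah2, Dnah7b, Dnah8, Dnah10 and Dnah11 were lost, and Ccno, Cfap52, Cfap221, Tekt2 and Tekt4 gained one.

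Sequence upstream of the members was searched for letters of ciliary control elements, since most members were high together in OVA+PM10. RFX factors bind the X-box, searched as GTTNCC, any 3 bases and GNAAC, and also by the shorter GTTGCCAT. Forkhead factors such as FOXJ1 bind sites with letters like GTAAACA. Each was sought on both strands in the 250 bases before the transcription start in RefSeq (GRCm38.p6), which 54 of the 62 members matched. Armc4, Cfap53, Cfap97, Foxj1, Lrrc6, Rsph1, Rsph4a and Tppp3 were the others. The X-box letters were found in 5 of the 54, or 9.26%, against 0.784% of 27025 genes and 0.982% of the 10690 genes at 1 FPKM or more. All 5 were among the 43 of the 54 that were higher in OVA+PM10 than in control, a group that holds most of the members searched. The other 11 had 0 matches but are too few for the groups to be compared. GTTGCCAT was found in 3 members (5.56%, against 1.29% of genes), in Cfap44 inside the longer match, and GTAAACA in 2 (3.70%, against 3.54%). A match describes letters and is not shown to be a bound site. The 5 X-box matches are given 5′ to 3′ on the strand of the gene, so that their shared ends can be compared. The letters as searched stand on that strand in Spag16, on the opposite strand in Cfap44, Cfap45 and Hydin, and on both in Ccdc151.
Cfap44: GTTGCTATGGCAAC
Cfap45: GTTGCTATGGTAAC
Hydin: GTTGCTGTGGCAAC
Spag16: GTTGCCGTAGTAAC
Ccdc151: GTTTCCTTGGGAAC

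The outermost base of the match lay 27 bases before the RefSeq start in Cfap44, 19 in Cfap45, 21 in Hydin, 34 in Ccdc151 and 103 in Spag16. These distances depend on the start used. Of all RefSeq windows, 37.8% had first 20 transcribed bases that begin a GENCODE transcript. In GENCODE, Cfap45 starts at 172520801, before the whole window shown here. The whole 250 bases are shown for Cfap45 and Ccdc151, the pair with the highest FPKM in OVA+PM10 among the 5, with the X-box letters in capitals to show how near the start they lie. The Cfap45 window is chr1:172520880-172521129 on the plus strand and the Ccdc151 window chr9:22002635-22002884 on the minus strand.
Cfap45: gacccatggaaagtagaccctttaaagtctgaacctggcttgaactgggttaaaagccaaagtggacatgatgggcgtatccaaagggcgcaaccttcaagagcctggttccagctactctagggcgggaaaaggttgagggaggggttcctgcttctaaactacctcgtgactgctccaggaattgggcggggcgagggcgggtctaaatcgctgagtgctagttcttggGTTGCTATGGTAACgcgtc
Ccdc151: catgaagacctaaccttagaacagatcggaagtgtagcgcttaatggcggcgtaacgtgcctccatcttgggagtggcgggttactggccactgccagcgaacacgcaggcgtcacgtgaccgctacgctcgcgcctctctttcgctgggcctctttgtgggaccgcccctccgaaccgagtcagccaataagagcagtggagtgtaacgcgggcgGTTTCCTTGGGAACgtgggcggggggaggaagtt

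Genes of ciliated cells outside the symbol rule were counted beside the members. Of 57 such genes at 1 FPKM or more, 48 passed 2-fold upward and 0 downward in OVA+PM10 relative to control, and their median log2 ratio was 1.59. The background of all genes tested in that comparison was 9.95% higher and 8.68% lower. Tmem212, used as a ciliated cell marker, had 96.5 FPKM in OVA+PM10, 57.8 in PM10 and 19.05 in control. Fam183b, another gene of ciliated cells, had 193 FPKM in OVA+PM10, 239 in PM10 and 42.2 in control. Between PM10 and control 18 of the 57 (31.6%) were higher and 1 was lower, the median being 0.52, against 13.6% and 13.9% of all genes and 16.1% higher among the members. In that comparison 51 of the 57 lay above control, and 33 of the 62 members. With the running median over length subtracted, however, the median was 0.32 for the 57 and 0.31 for the 62 members, a value that subtraction raises for long members of low FPKM. Against PM10, 23 of the 57 (40.4%) were higher in OVA+PM10 and 0 lower, fewer than the members' 36 of 62, the background being 11.8%. Here too the medians lay close together once the length trend was removed, at 1.14 for the 57 and 1.09 for the 62 members. Of 41 genes of intraflagellar transport and the basal body, which primary cilia of other cells use too, 8 were higher and 0 lower in OVA+PM10 than in control. The share higher was 19.5%, against 9.95% of all genes tested, and the median was 0.66. Sperm tails share many axonemal proteins, and of 18 testis and sperm genes 13 were listed at 0 in OVA+PM10, 15 in PM10 and 11 in control.

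Markers of other lung cells were counted in the same way, to be read against the 9.95% of genes higher and 8.68% lower in OVA+PM10 than in control, and 13.6% and 13.9% in PM10 than in control. All 13 goblet cell genes were higher in OVA+PM10 than in control, with sums of 7019 FPKM in OVA+PM10, 23.8 in PM10 and 56.1 in control, and in PM10 1 was higher and 3 lower than in control. Of 25 genes of club and secretory cells, 6 of which are also on the goblet cell list, 13 were higher and 3 lower in OVA+PM10 than in control, and 3 higher and 10 lower in PM10. Of 19 general epithelial genes 6 were higher and 0 lower in OVA+PM10, and 3 higher and 1 lower in PM10. Epcam, an adhesion molecule of most epithelia, had 56.7 FPKM in OVA+PM10, 46.1 in PM10 and 37.2 in control. Of 12 genes of alveolar type 1 cells 0 were higher and 10 lower in OVA+PM10, and 1 higher and 3 lower in PM10. The 12 alveolar type 2 genes stayed near the background in OVA+PM10, with 1 higher and 1 lower, and in PM10 3 were higher and 1 lower. Of 7 airway basal cell genes, 0 were higher and 7 lower in OVA+PM10, and 0 higher and 5 lower in PM10. The listed basal cell genes summed to 8.53 FPKM in OVA+PM10, 30.8 in PM10 and 384 in control, the library with the squamous epithelium genes. Whether they came from airway basal cells or from that other tissue was not tested, so these counts do not show a loss of airway basal cells. The part of these cell types in the cilium results was not tested.

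**Figure D4:**
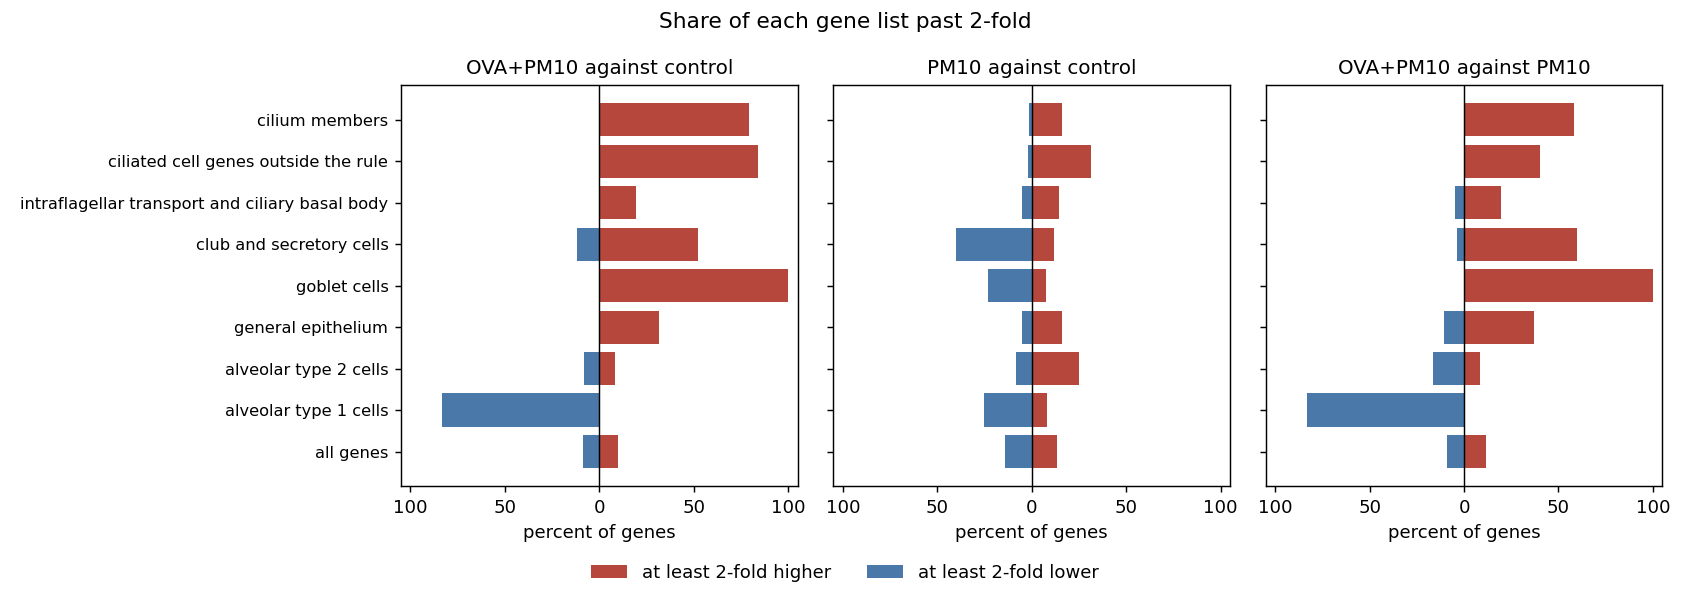
Percent of the genes in each list that were at least 2-fold higher (red, to the right) or lower (blue, to the left), in 1 panel per comparison, with all genes tested as the bottom bar. For OVA+PM10 against control, 49 of the 62 cilium members and 48 of the 57 ciliated cell genes outside the rule were higher.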

How the data were processed

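RNA extracted from lung with Trizol (1.3 µg) was made into libraries with a directional kit, per the labels' protocols. The submitters' processing notes name TopHat and mm10, without versions. The deposited values are FPKM, a unit inferred from the values. No source used here gives the counting program, its annotation, its use of strand or its treatment of reads that match more than 1 place. Libraries were grouped by title.

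From the FPKM, 3 ratios were computed, with a pseudocount of 1. Gene positions and the longest transcript of each gene were taken from GENCODE M21 (GRCm38, the assembly behind mm10), which matched 22809 genes (98.4%) by symbol or synonym. Depth and approximate reads came from the FPKM worth of 1 read, and they ignore how reads were shared among transcripts. The longest transcript may not be the one expressed. It has 1 exon for Cfap45, 3 for Cfap20 and 4 for Ccdc114, so the lengths and reads given for such genes are uncertain. The length trend was a running median over 501 genes. The calling code was tested on simulated data in which the changed genes had 5 FPKM or more in control. Only 16 members reached that level in control, so the test does not cover calls of lower members. The members, lists, roles and motifs were chosen with earlier results of these data known. Members named with values were, by rule, up to 4 of each role group with the highest mean, the 5 highest and 5 lowest ratios per comparison at 5 FPKM or more, and a fixed set. Ccdc65, Cfap43, Cfap45, Rsph3b, Spag17, Tekt5, the genes outside the rule (Cdc20b, Dll1, Epcam, Fam183b, Gmnc, Myb, Notch1, Rfx1, Rfx2, Rfx3, Tmem212 and Trp73), and the members listed by call, were named after their values were seen. Python 3.11.15, numpy 2.4.6, pandas 2.3.3 and scipy 1.17.1 were used.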

Additional observations from a re-analysis of the deposited data

How the results depend on the processing

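No paired analysis was possible because each group had 1 library. For OVA+PM10 against control, the members' median log2 ratio was 1.98 with a pseudocount of 0.25 FPKM, 0.86 with 5 FPKM, 1.53 with no filter on low values, 1.76 at 5 FPKM or more, 1.53 with median-ratio scaling, 1.24 with equal summed FPKM, 1.61 with the length trend removed, 2.16 as a plain ratio and 1.58 without close paralogs. The 49 higher members became 22 with a pseudocount of 5 FPKM and 15 at 4-fold, and between 38 and 54 otherwise. For PM10 against control in the same order the median was 0.098, 0.042, 0.017, 0.73, 0.054, -0.62, 0.31, 0.16 and 0.11. The 10 higher members became 3 at 4-fold, 1 with equal summed FPKM and 6 with the length trend removed. The 1 lower member became 4 with a pseudocount of 0.25 FPKM, 5 as a plain ratio and 20 with equal summed FPKM, and 0 with a pseudocount of 5 FPKM, at 5 FPKM or more, at 4-fold and without close paralogs. For OVA+PM10 against PM10 the median was 1.61, 0.56, 1.15, 1.34, 1.30, 1.61, 1.09, 1.75 and 1.24 in that order, and the 36 higher members became 17 with a pseudocount of 5 FPKM and 11 at 4-fold. The share of all genes was not counted with the changed pseudocounts, at 4-fold, as plain ratios or with the other scalings. Counts of members under those settings therefore have no background beside them. Plain ratios and the removal of close paralogs (Dnah7a, Dnah7b, Rsph3a, Rsph3b, Spag6) were chosen after seeing the data. The count of lower members stayed at 0 for OVA+PM10 against either library under these settings, and 0 called ratios of named members reversed. Apart from the changed thresholds and gene sets, the cause of these shifts was not tested. In PM10, 7 members had under 30 reads, and their ratios carry the counting error of so few reads.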
